A study of Arabidopsis thaliana with 16 samples.

Results

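The nuclear genes for photosystem subunits and for the minor antenna of Arabidopsis thaliana are described here in 16 RNA sequencing libraries. The set is defined by gene name and function, and was proposed when earlier results of these data were known. It holds LHCB4 to LHCB7, LHCA1 to LHCA6 and the nuclear-encoded PSB and PSA subunits, which are 34 of the 32833 loci in the table. By role they are 6 genes of the minor antenna of photosystem II, 6 of the antenna of photosystem I, 6 of the oxygen-evolving complex, 4 other photosystem II subunits and 12 subunits of photosystem I. The 8 groups held 2 libraries each, labelled as biological replicates. Whole seedlings, 10 days old, were taken at ZT16 from the wild type Col-0 and from the line 35S:CO. Petals were taken at ZT4 and at ZT16 from both of these and from the mutant co-10. Plants grew in cycles of 16 h light and 8 h dark, and ZT is the number of hours since the lights came on, which makes ZT16 the end of the light period. The 35S:CO line overexpresses CONSTANS (CO), a regulator of flowering in long days, from a viral promoter that is active in most tissues, and co-10 is labelled as a null mutant of CO. Labels gave neither the age or stage of the flowers nor the number of plants pooled in a library, so the p-values measure the spread between these libraries, which may be technical. No co-10 seedlings and no seedlings at ZT4 were analysed here.

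Photosystem II splits water and photosystem I reduces ferredoxin, and both collect light through chlorophyll-binding antenna proteins. In plants the reaction centres are made from genes of the plastid itself, while the antenna proteins and many peripheral subunits are encoded in the nucleus and imported. In green leaves the nuclear transcripts are known to follow light and the circadian clock, with the antenna genes highest in the first part of the day. Arabidopsis petals are white when open and hold few chloroplasts.

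The 3 LHCB4 genes encode CP29, the antenna protein next to the photosystem II core, and LHCB4.3 alone of the 34 was called higher in petals at ZT16 than at ZT4, so the 250 bases before the annotated start of each are shown 5′ to 3′ (sequences and positions from RefSeq's TAIR10.1). Capitals mark matches on either strand to the G-box CACGTG or the I-box GATAAG, elements known from light-regulated genes, or to CCAATC. NF-Y factors bind the shorter CCAAT, which CCAATC holds before its last C. GATTGG is CCAATC on the other strand.
LHCB4.1 (chr5:208616-208865, plus strand): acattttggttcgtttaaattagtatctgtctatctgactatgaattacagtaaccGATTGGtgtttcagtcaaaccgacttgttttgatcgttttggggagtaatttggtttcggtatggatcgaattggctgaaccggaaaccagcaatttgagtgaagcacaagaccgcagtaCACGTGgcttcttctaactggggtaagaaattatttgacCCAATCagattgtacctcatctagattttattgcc
LHCB4.2 (chr3:2717307-2717556, plus strand): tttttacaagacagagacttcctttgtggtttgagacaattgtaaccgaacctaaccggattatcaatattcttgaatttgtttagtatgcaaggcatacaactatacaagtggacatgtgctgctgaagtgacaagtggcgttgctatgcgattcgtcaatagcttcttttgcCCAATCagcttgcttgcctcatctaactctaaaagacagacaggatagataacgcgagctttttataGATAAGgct
LHCB4.3 (chr2:16745378-16745627, plus strand): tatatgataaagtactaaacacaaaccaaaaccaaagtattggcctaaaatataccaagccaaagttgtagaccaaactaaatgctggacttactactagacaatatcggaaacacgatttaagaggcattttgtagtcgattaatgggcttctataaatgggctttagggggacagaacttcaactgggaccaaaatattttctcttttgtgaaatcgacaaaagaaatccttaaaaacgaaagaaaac

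The LHCB4.1 window held 1 G-box and 2 CCAATC matches, the LHCB4.2 window 1 I-box and 1 CCAATC match, and the LHCB4.3 window no match to these letters. The LHCB4.3 window does hold ATTGG, which is the shorter CCAAT on the other strand. Also searched were AATATCT, the core of the evening element of clock-regulated genes, and CORE, the element bound by CO upstream of FT, searched as TGTG, 2 or 3 bases of any kind, then ATG. Both strands were searched, and in the 34 windows no match overlapped another. A G-box lay in 8 member windows (23.5%) and in 6.49% of the windows of all 27443 genes searched the same way. For the I-box the counts were 8 members (23.5%) and 12.3% of all genes, for CCAATC 6 members (17.6%) and 10.2%, for the evening element core 4 members (11.8%) and 10.0%, and for CORE 5 members (14.7%) and 7.04%. The G-box members were LHCB4.1, LHCB6, LHCB7, LHCA4, PSBQ1, PSBQ2, PSAE2 and PSAH2, and the CORE members LHCB6, PSBS, PSBO2, PSAD2 and PSAE2. Of the 5 CORE members LHCB6 and PSAD2 were called higher in 35S:CO seedlings and the other 3 were not. Of all 34 members 17 were called higher there. These are letter matches in a short window and were not tested as binding sites.

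The values are the authors' FPKM, fragments per kilobase of transcript scaled to the reads of the library, which allow levels of different genes to be set side by side per length. They carry no counts. Steps between low values gave an estimated 56020000 to 63350000 reads per seedling library, while in petals the step was ambiguous and the depth stays uncertain. Petal libraries listed 11490 to 18240 loci at 0 and seedling libraries 7975 to 8361. Ribosomal RNA loci held 3.82% to 48.8% of summed FPKM in petals and 0.108% to 0.610% in seedlings. CO, the manipulated gene, stood at or below 2.098 FPKM in each Col-0 library, at or below 0.260 in each co-10 library and from 297 to 625 in 35S:CO. The petal label fitted the petal identity genes AP3 and PI, which ran from 275 to 1148 FPKM in petals and reached at most 1.48 in seedlings. Of 5 pollen and anther markers AMS, MS1 and MYB26 were listed at 0 in all 12 petal libraries, and the summed level of the 5 ran from 229 to 345 FPKM at ZT4 and from 238 to 381 FPKM at ZT16. The sum came from MYB21 and TUA1, at 23.5 to 256 and 74.6 to 330.0 FPKM in petals. In seedlings MYB21 reached at most 0.129 FPKM, and TUA1 stood at 13.5 and 13.7 in Col-0 and at 35.1 and 30.0 in 35S:CO. The petal identity genes AP3, PI and AP1 were also higher in 35S:CO seedlings, at 0.706 to 1.48 FPKM against 0 to 0.375 in Col-0. SEP3, of the same list, overlapped between the genotypes. The 5 carpel, ovule and seed markers summed to 18.7 FPKM in co-10 ZT4 replicate 1 and to at most 8.96 in the other petal libraries. In seedlings they summed to 0.216 to 0.460 FPKM. In petals the 5 root markers summed to at most 4.56 FPKM, also in co-10 ZT4 replicate 1. The 4 leaf epidermis and guard cell markers summed to at most 5.48. In seedlings these 2 lists summed to 50.4 to 93.1 and 20.004 to 24.8 FPKM.

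The set was abundant in seedlings and still present in petals. Its 34 genes held 3.96% to 5.49% of the summed FPKM of nuclear genes other than ribosomal RNA in seedlings, 1.44% to 2.15% in petals at ZT4 and 0.381% to 0.749% in petals at ZT16, and these 3 ranges did not overlap. From 19 to 25 of the 34 were among the 100 most abundant loci of a seedling library, 2 to 4 at ZT4 in petals and at most 1 at ZT16. PSBR, a small subunit that holds the oxygen-evolving proteins to photosystem II, was the highest member in every library (AT1G79040, chromosome 1, 29735952 to 29737009, plus strand). It stood at 2394 to 2917 FPKM in the 4 seedling libraries, 1661 to 3627 (median 2090.4) in petals at ZT4 and 493 to 1161 (median 792) at ZT16. Positions are those of RefSeq's TAIR10.1.

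By role, the 12 photosystem I subunits and the 6 genes of the oxygen-evolving complex held the most, 1.28% to 1.79% and 1.32% to 1.56% of nuclear FPKM in seedlings. In petals they held 0.390% to 0.702% and 0.507% to 0.784% at ZT4 and 0.096% to 0.247% and 0.144% to 0.306% at ZT16. The 6 minor antenna genes held 0.419% to 0.746% in seedlings, 0.095% to 0.149% at ZT4 and 0.048% to 0.076% at ZT16, and the 6 photosystem I antenna genes 0.367% to 0.740%, 0.228% to 0.337% and 0.042% to 0.081%. Within the minor antenna LHCB5 and LHCB4.1 were the highest in seedlings, at 985 to 1489 and 912 to 1355 FPKM, and LHCB7, a rare relative, the lowest, at 12.5 to 18.3. In petals at ZT4 LHCB4.1 stood at 184 to 322 FPKM, LHCB6 at 140.2 to 287 and LHCB5 at 118 to 228, and these 3 ranges overlapped. Of the photosystem I antenna, LHCA4 was the highest in petals at ZT4, at 470.2 to 1109 FPKM, and LHCA6 the lowest in all 12 petal libraries.

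All 6 petal libraries at ZT4 lay below all 4 seedling libraries for 29 of 34 members, which holds for 49.6% of 20739 loci. The seedlings were taken at another hour, ZT16, so the values are set side by side without a test. The other 5 overlapped: PSBR, given above, LHCB4.2, LHCA1, LHCA4 and PSAD2. LHCA1 stood at 212 to 605 FPKM in petals at ZT4 and 397 to 637 in seedlings, and PSAD2 at 84.9 to 175 and 87.2 to 269.7. At the other end PSBQ1 stood at 30.5 to 113 FPKM against 1248 to 1363, PSBO2 at 58.6 to 113 against 707 to 799 and PSAN at 44.7 to 252 against 676 to 896. For these 3 the petal ranges lay well below those of seedlings at both times.

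**Figure D1:**
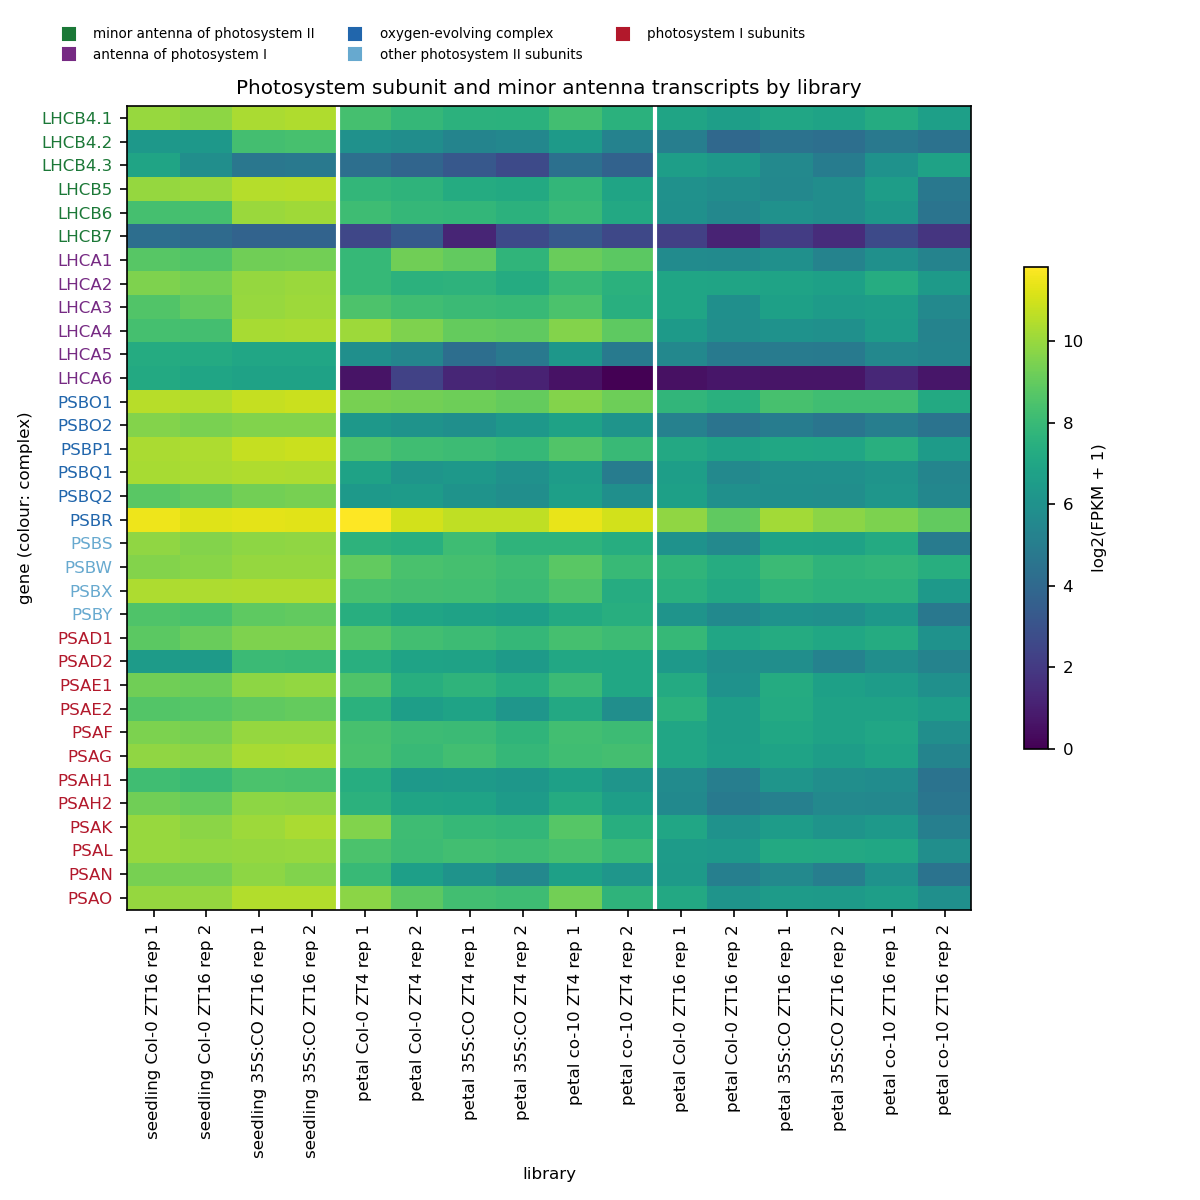
Level of each of the 34 genes (rows, names coloured by complex) in each of the 16 libraries (columns), as log2(FPKM + 1). White lines part seedlings, petals at ZT4 and petals at ZT16; PSBR is the brightest row, LHCA6 is near 0 in all 12 petal libraries, and LHCB4.3 is brighter at ZT16 than at ZT4.

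In seedlings at ZT16 setting 35S:CO against wild type asks what CO overexpression does to these transcripts at lights off. The 35S:CO seedlings also held more TUA1, AP3, PI and AP1 transcript, as given above. The part of stage or tissue make-up in this contrast was not tested. Of the 34 members, all tested, 17 rose and 0 fell by limma over the 4 seedling libraries. Of all 19214 tested loci, 5.5% rose and 6.22% fell. At an unadjusted p under 0.05, in either direction, there were 26, and the share of all loci at that threshold was not counted. The median difference of the members was 0.44 on the log2(FPKM + 1) scale, against -0.09 for all tested loci, and 29 of 34 lay above 0. The rise reached 3 of 6 genes of the minor antenna, 4 of 6 of the photosystem I antenna, 2 of 6 of the oxygen-evolving complex, 1 of 4 other photosystem II subunits and 7 of 12 photosystem I subunits. With quantile normalization 29 again lay above 0, although over all loci 1132 of 1982 called rose, against 1057 of 2252 as reported. When all 16 libraries shared 1 fit, 3 members were called, and 696 of 21200 loci over all. Fits without a 35S:CO library leave 1 library in that group, and fewer members and fewer loci over all passed in them. The median of the members was 0.49 without 35S:CO replicate 1 and 0.40 without 35S:CO replicate 2. LHCB6, LHCB4.2 and LHCA4 passed without each library in turn. Without Col-0 replicate 1 there were 18 calls higher and 1 lower, LHCB4.3 at -1.12 (adjusted p = 0.00189), and without Col-0 replicate 2 14 higher and 2 lower, LHCB4.3 at -2.199 (adjusted p = 0.000166) and LHCB7 at -0.504 (0.0234).

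In the minor antenna LHCB4.2 (AT3G08940, chromosome 3, 2717557 to 2718923, plus strand) stood at 77.2 and 79.2 FPKM in the Col-0 libraries and at 311 and 336 in 35S:CO. It rose by 2.03 ± 0.08 (adjusted p = 0.000994), 4.09-fold in FPKM + 1. LHCB6, which encodes CP24, a protein that joins the trimeric antenna to the core, went from 318 and 323 to 1057 and 1126 FPKM, a rise of 1.77 ± 0.08 (adjusted p = 0.00121). In both genes the 35S:CO libraries lay far above the Col-0 libraries and the replicates were close. LHCB5, which encodes CP26, rose from 985 and 1054 to 1475 and 1489 FPKM, by 0.54 ± 0.08 (adjusted p = 0.0208). LHCB4.1, the most abundant LHCB4 copy, stood at 1032 and 912 in Col-0 and 1274 and 1355 in 35S:CO, a difference of 0.44 ± 0.10 that did not pass (adjusted p = 0.0518). LHCB4.3 had the opposite sign, with 120.5 and 56.6 FPKM in Col-0 and 24.6 and 26.3 in 35S:CO. Its groups did not overlap, but the Col-0 replicates lay apart and the difference of -1.66 ± 0.38 did not pass (adjusted p = 0.0678). LHCB7 differed by -0.41 ± 0.10 (adjusted p = 0.0606), which did not pass.

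Among the antenna genes of photosystem I the largest rise was that of LHCA4 (AT3G47470, chromosome 3, 17493343 to 17495033, minus strand), which with LHCA1 forms a dimer of the antenna belt. It stood at 320.1 and 314 FPKM in Col-0 and 1221 and 1288 in 35S:CO and rose by 1.98 ± 0.08 (adjusted p = 0.000937). LHCA3 followed, from 392 and 505 to 1023 and 1089 FPKM and by 1.24 ± 0.14 (adjusted p = 0.0110). LHCA1 and LHCA2 rose by 0.60 ± 0.08 and 0.56 ± 0.10 (adjusted p = 0.0178 and 0.0344), so the 4 genes of the antenna belt all rose. LHCA5 and LHCA6, which link photosystem I to the chloroplast NDH complex, gave -0.25 ± 0.07 and -0.25 ± 0.11 and did not pass. LHCA6 stood at 143 and 121 FPKM in Col-0 and 109.7 and 112 in 35S:CO.

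Within photosystem I, PSAD2 rose most. PSAD is the subunit at which ferredoxin docks, and of its 2 copies PSAD2 (AT1G03130, chromosome 1, 753307 to 754262, minus strand) went from 87.7 and 87.2 to 269.7 and 257 FPKM, by 1.58 ± 0.08 (adjusted p = 0.00139), while PSAD1 went from 466 and 550.3 to 732 and 753, by 0.55 ± 0.11 (adjusted p = 0.0387). PSAE1, a copy of the neighbouring stromal subunit, rose by 0.66 ± 0.08 (adjusted p = 0.0147), from 609 and 566 to 911 and 945 FPKM, and PSAE2 gave 0.31 ± 0.08, which did not pass (adjusted p = 0.0713). The other 4 that rose were PSAF, the plastocyanin docking subunit, PSAG, which anchors the antenna belt, and PSAH2 and PSAO, on the side where mobile antenna binds, by 0.48 to 0.62. PSAH1, PSAL, which carries PSAH, PSAK and PSAN gave 0.02 to 0.37 and did not pass. In photosystem II PSBP1 and PSBQ2, extrinsic proteins of the oxygen-evolving complex, rose by 0.48 ± 0.08 and 0.46 ± 0.10 (adjusted p = 0.0270 and 0.0478), and PSBY, a small membrane subunit, by 0.45 ± 0.09 (0.0408). PSBS, the sensor of excess light, stood at 921 and 791 FPKM in Col-0 and 892 and 923 in 35S:CO, and it and PSBR, PSBO1, PSBO2, PSBQ1, PSBW and PSBX gave differences of -0.05 to 0.33, none of which passed.

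**Figure D2:**
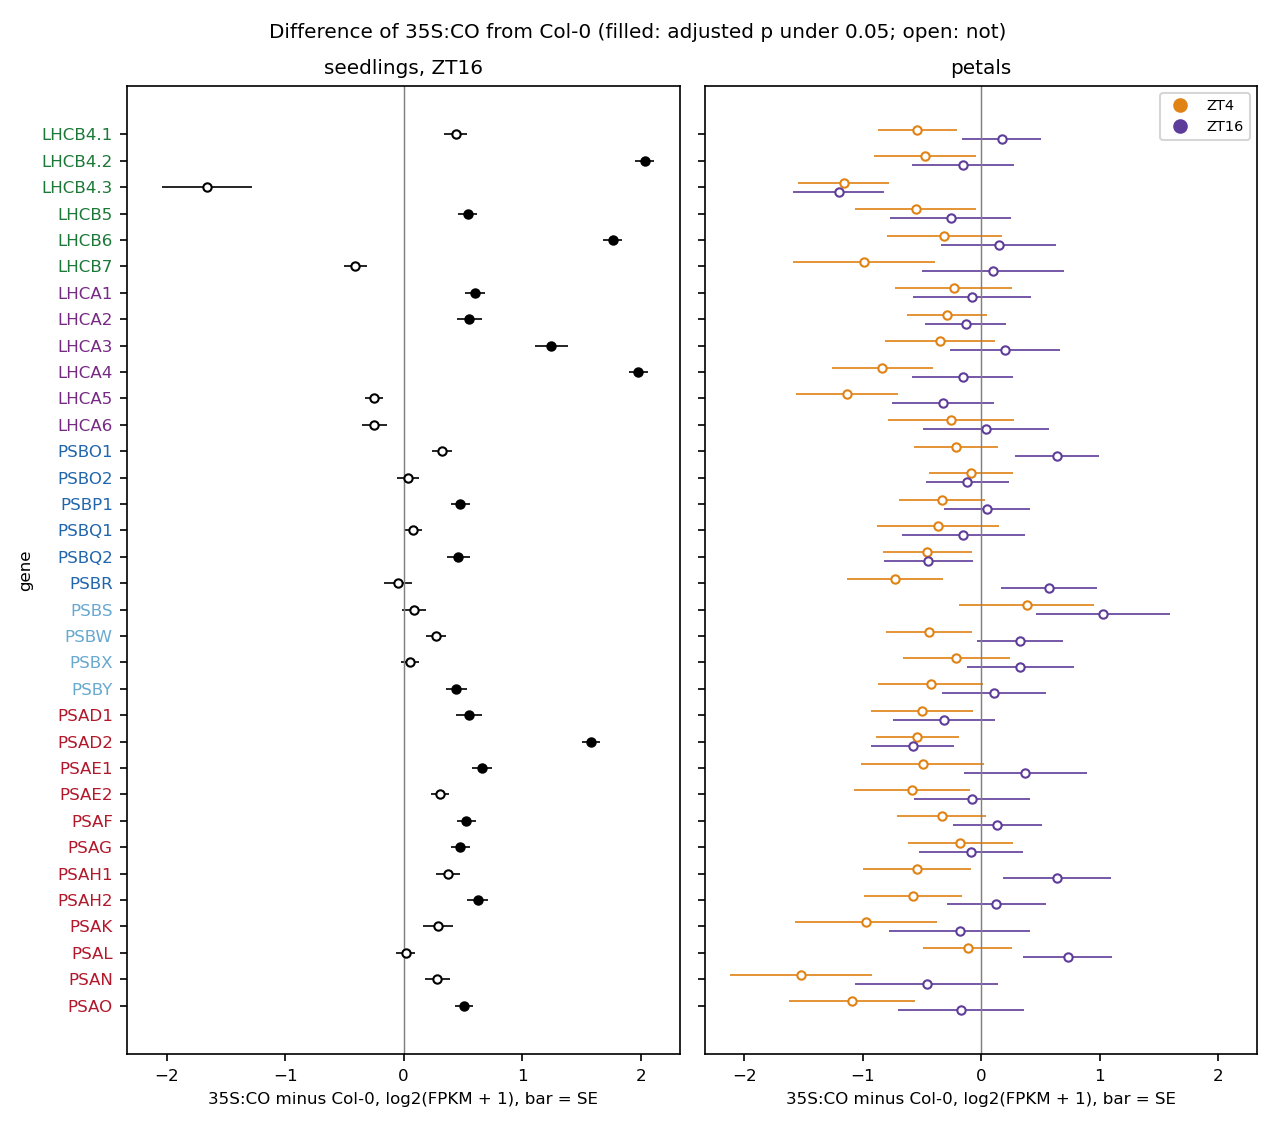
Difference of 35S:CO from Col-0 for each gene on the log2(FPKM + 1) scale, in seedlings at ZT16 (left) and in petals at ZT4 and ZT16 (right), with bars of 1 SE from the fit. Filled points have an adjusted p under 0.05, 17 in seedlings and 0 in petals; name colours are those of the complexes, and LHCB4.3 lies left of 0 in both panels.

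Related gene lists gave a background for this, where 5.5% of all tested loci rose and 6.22% fell. Of the major light-harvesting genes LHCB1 to LHCB3, 7 of 8 tested rose in 35S:CO seedlings, with a median of 2.07 and the largest values for LHCB2.3, 5.35 ± 0.10 (adjusted p = 0.000248), and LHCB2.1, 3.82 ± 0.16 (adjusted p = 0.00104). Of 14 chlorophyll synthesis genes 4 rose and 1 fell, among them CAO, which makes chlorophyll b, at 1.82 ± 0.15 (adjusted p = 0.00481), HEMA1, the entry enzyme of the pathway, at 1.49 ± 0.12 (adjusted p = 0.00500) and CHLG, which adds the tail of chlorophyll, at -0.41 ± 0.08 (adjusted p = 0.0363). Of 18 assembly and regulation genes 4 rose, among them ELIP2 and ELIP1, relatives of the antenna that bind pigments under light stress, at 1.82 ± 0.15 (adjusted p = 0.00548) and 1.28 ± 0.20 (adjusted p = 0.0256). Of 14 electron carrier and ATP synthase genes and of 14 plastid-encoded photosystem genes none passed by limma, with 5 and 2 at an unadjusted p under 0.05 and medians of -0.16 and -0.45.

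In petals CO overexpression gave no call in this set. By limma 0 of 34 members passed at ZT4 (background 0.106% of 17876 loci) and 0 at ZT16 (1.14%), with 3 and 1 members at an unadjusted p under 0.05. At ZT4 the difference of 35S:CO from Col-0 lay below 0 for 33 of 34 members, with a median of -0.47, against -0.07 for all loci. Without Col-0 replicate 1 of ZT4, 29 lay below 0 and the median was -0.22. With quantile normalization 27 lay below 0 and their median was -0.25, and with rescaling to nuclear genes other than ribosomal RNA 30 and -0.27, where the median of all loci became 0.00 and 0.08. At ZT16 the members were split, 17 above and 17 below 0, with a median of -0.02, and this split turned on single libraries. Without Col-0 replicate 1 of ZT16 26 lay above 0 (median 0.34), and without Col-0 replicate 2 of ZT16 25 lay below 0 (median -0.27). PSAN, a subunit on the plastocyanin side of photosystem I, had the largest difference at ZT4, with 252 and 101 FPKM in Col-0 and 67.4 and 44.7 in 35S:CO, and -1.52 ± 0.60 on the log2 scale (adjusted p = 0.701). Col-0 replicate 1 was high in PSAN, as in PSAK and PSAO, and the replicates lay apart. PSBS had the largest positive difference at ZT16, with 64.4 and 46.2 FPKM in Col-0, 113 and 111 in 35S:CO and 150.04 and 29.7 in co-10, and 1.03 ± 0.57 (adjusted p = 0.639).

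LHCB4.3 was lower in both 35S:CO libraries than in both Col-0 libraries at each time, with differences of -1.16 ± 0.38 at ZT4 and -1.20 ± 0.38 at ZT16 that did not pass (adjusted p = 0.537 and 0.239). Against co-10 the values were -1.08 ± 0.38 and -1.15 ± 0.38 (adjusted p = 0.324 and 0.264), from the same 35S:CO libraries. No member passed in 35S:CO against co-10 at ZT4 (background 0.319%) or ZT16 (0.929%), with 2 and 1 members at an unadjusted p under 0.05. Without co-10 ZT16 replicate 1, which left 1 library in that group, PSBS passed at ZT16 with a difference of 1.88. More loci over all passed in that fit too. After LHCB4.3 the largest differences were those of LHCA5 at ZT4, -1.02 ± 0.43 (adjusted p = 0.414), and of PSAH1 at ZT16, 0.89 ± 0.46 (0.644). Loss of CO gave no call either: 0 of 34 in co-10 against Col-0 at ZT4 (background 0.0224%) and at ZT16 (0.0224%), with none at an unadjusted p under 0.05, and medians of -0.21 and -0.24 whose sign rested on single libraries. The ZT4 median was 0.02 without Col-0 replicate 1 and 0.07 without co-10 replicate 2 of that time. It was -0.41 without Col-0 replicate 2 and -0.59 without co-10 replicate 1. The ZT16 median was 0.13 and 0.27 without Col-0 replicate 1 and co-10 replicate 2 of ZT16. It was -0.51 without Col-0 replicate 2 and -0.71 without co-10 replicate 1. LHCA6, near 0 in petals, had the largest co-10 difference, -1.17 ± 0.53 at ZT4 (adjusted p = 0.623), from 0.537 and 4.01 FPKM in Col-0 and 0.512 and 0 in co-10. At ZT16 the largest were PSAD1, -0.80 ± 0.43 (adjusted p = 1.00), and PSAK, -0.76 ± 0.60 (1.00).

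Whether the effect of 35S:CO at ZT16 differed between petals and seedlings was tested as an interaction over all 16 libraries. It passed for 1 of 34 members, PSAD2, at -2.16 ± 0.43 (adjusted p = 0.0312), against a background of 0.783% of 21200 loci with a lower value. PSAD2 rose in 35S:CO seedlings as given above, whereas in petals at ZT16 it stood at 82.6 and 57.5 FPKM in Col-0 and 57.3 and 36.7 in 35S:CO. LHCB4.2 and LHCA4, the other large rises of seedlings, gave -2.18 ± 0.56 and -2.14 ± 0.54 and did not pass (adjusted p = 0.102 for both). The call of PSAD2 was lost without any 1 of the 4 seedling libraries, Col-0 ZT16 petal replicate 1 or 35S:CO ZT16 petal replicate 2, and 2 members passed without Col-0 ZT16 petal replicate 2.

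At ZT16 nearly the whole set was lower in petals than in seedlings. By limma 32 of 34 members fell in Col-0 (background 45.5% of loci lower) and 33 of 34 in 35S:CO (43.1%), and none rose. The median difference of the members was -2.68 and -3.33, against -0.74 and -0.65 for all loci, and these became -2.96 and -3.69 against -0.13 and -0.09 with quantile normalization, under which 5706 of 12779 called loci were higher in Col-0 petals, against 4013 of 13668 as reported. In whole organs, fewer green cells and less transcript per cell cannot be told apart. LHCA6 (AT1G19150, chromosome 1, 6612630 to 6613972, plus strand) had the largest difference, from 109.7 to 143 FPKM in the 4 seedling libraries to 0.423 to 1.47 in the 6 petal libraries at ZT16. Its difference was -6.43 ± 0.46 (adjusted p = 4.09e-07) in Col-0 and -6.14 ± 0.46 (adjusted p = 7.18e-07) in 35S:CO. At ZT4 it was also near 0 in petals, at 0 to 4.01 FPKM. Its relative LHCA5 kept 18.3 to 75.2 FPKM at ZT4 and 27.6 to 44.7 at ZT16, against 126 to 152 in seedlings.

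Next came genes of photosystem II. PSBO2, the minor copy of the manganese-stabilising protein, stood at 707 to 799 FPKM in seedlings and 21.6 to 35.6 in petals at ZT16, and fell by 4.68 ± 0.31 in Col-0 (adjusted p = 2.14e-07). In Col-0 the differences of PSBQ1, LHCB5 and PSBS were -4.21 ± 0.49, -4.10 ± 0.48 and -3.94 ± 0.54 (adjusted p = 1.85e-05, 2.07e-05 and 7.07e-05). In photosystem I, PSAH2 fell by 3.95 ± 0.38 (adjusted p = 4.07e-06) in Col-0, and PSAN fell by 4.37 ± 0.58 (adjusted p = 5.92e-05) in 35S:CO. The smallest falls were those of PSAD1 in Col-0, at -1.52, and of PSBR in 35S:CO, at -1.35. LHCB4.3 was the exception in both genotypes, with 0.09 ± 0.41 in Col-0 (adjusted p = 0.867) and 0.54 ± 0.41 in 35S:CO (0.270). PSAD2 did not pass in Col-0, at -0.34 ± 0.30 (adjusted p = 0.344), and fell by 2.496 ± 0.30 in 35S:CO (adjusted p = 2.95e-05). The tissues also differed in ribosomal RNA share and in loci at 0, as given above. LHCB1.5, a major antenna gene, was listed at 0 in all 4 seedling libraries and stood at 1190.2 to 2149 FPKM in petals at ZT4 and 51.5 to 209 at ZT16, and a difference between the organs and one in how their libraries were made or quantified cannot be told apart.

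Between ZT4 and ZT16 members of each complex fell in petals and LHCB4.3 alone rose. By limma 16 of 34 members fell and 1 rose in Col-0 (background 6.81% lower and 8.56% higher, 15.4% in all), 18 fell and 1 rose in co-10 (4.79% and 8.51%, 13.3% in all), and 2 fell and 1 rose in 35S:CO (1.21% and 3.02%, 4.23% in all). The medians of all 34 were -1.36, -1.47 and -0.83, against 0.00, 0.21 and 0.09 for all loci. With quantile normalization they were -1.38, -1.48 and -1.09, against 0.01, 0.09 and 0.02. Of the members that fell, 14 did so in both Col-0 and co-10, 87.5% of the first list and 77.8% of the second. The same overlap over all loci was not counted, and both tests used 1 shared estimate of the spread of each gene. The interaction of 35S:CO with time gave 0 calls (background 0.0224%) and 1 member, PSBR, at an unadjusted p under 0.05 (1.299 ± 0.58, adjusted p = 0.726), so the smaller number of calls in 35S:CO was not shown to be a smaller change. That interaction lay above 0 for 31 members (median 0.54) as deposited, for 26 (median 0.28) without Col-0 ZT16 replicate 2, and for 26 with quantile normalization or with rescaling to nuclear genes, which moved the median of all loci from 0.08 to 0.00 and -0.08. For co-10 with time it gave 0 calls (background 0.0224%) and none at an unadjusted p under 0.05. Over all loci, 1522 of 2379 calls were higher in co-10 and 540 of 757 in 35S:CO, and 1332 of 2500 and 522 of 901 with quantile normalization.

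Counts of calls moved when single libraries were left out, which leaves 1 library in a group. Fewer members passed in every such fit of Col-0 and of 35S:CO. In co-10 fewer passed without ZT4 replicate 1 or ZT16 replicate 2, and more without ZT16 replicate 1. Calls over all loci moved too, so these changes are not results about the members alone. The median of the members stayed below 0 in each of these fits. It ran from -1.71 to -1.12 in Col-0, from -0.94 to -0.73 in 35S:CO and from -1.97 to -0.96 in co-10. LHCB4.3, LHCA4 and LHCA1 passed without each library in turn in Col-0 and in co-10. Taken over the 3 genotypes, all 6 ZT16 libraries lay below all 6 ZT4 libraries for 21 of 34 members, which holds for 6.02% of all loci, and above them for 1, LHCB4.3, which holds for 10.9% of all loci. The other 12 overlapped.

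In the antenna of photosystem I, LHCA1 and LHCA4 fell in the 3 genotypes and LHCA3 in Col-0 and co-10. LHCA4 stood at 1109 and 749 FPKM in Col-0, 529 and 493 in 35S:CO and 785 and 470.2 in co-10 at ZT4, and at 85.1 and 56.0, 64.1 and 59.8 and 90.1 and 38.4 at ZT16. The ranges of both times were far apart in each genotype. The differences of LHCA4 were -3.70 ± 0.43 (adjusted p = 0.000360) in Col-0, -3.02 ± 0.43 (adjusted p = 0.00457) in 35S:CO and -3.35 ± 0.43 (adjusted p = 0.000860) in co-10. LHCA1, its partner, stood at 245 and 605 FPKM in Col-0, 506 and 212 in 35S:CO and 565 and 455 in co-10 at ZT4 and at 38.2 to 60.3 at ZT16. Its ZT4 replicates were uneven in Col-0 and in 35S:CO, and all of them lay above every ZT16 library. The differences of LHCA1 were -2.90 ± 0.50 (adjusted p = 0.00316) in Col-0, -2.74 ± 0.50 (adjusted p = 0.0138) in 35S:CO and -3.37 ± 0.50 (adjusted p = 0.00179) in co-10. LHCA3 fell by 1.96 ± 0.46 (adjusted p = 0.0161) in Col-0, and it fell by 1.88 ± 0.46 (adjusted p = 0.0220) in co-10. LHCA2, LHCA5 and LHCA6 did not pass in any genotype, with LHCA2 at -0.84, -0.68 and -0.88 in Col-0, 35S:CO and co-10.

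In the minor antenna LHCB6 stood at 140.2 to 287 (median 227) FPKM in the 6 petal libraries at ZT4 and 22.7 to 76.2 (median 57.0) at ZT16, with no overlap. Its differences were -2.28 ± 0.49 (adjusted p = 0.00977) in Col-0 and -2.16 ± 0.49 (adjusted p = 0.0149) in co-10, and in 35S:CO its -1.82 ± 0.49 did not pass (adjusted p = 0.0618). LHCB5 fell in the same genotypes, with -1.88 ± 0.51 (adjusted p = 0.0307) in Col-0 and -1.72 ± 0.51 (adjusted p = 0.0484) in co-10. LHCB4.1 fell by 1.36 ± 0.33 (adjusted p = 0.0196) in Col-0 and gave -0.64 ± 0.33 and -0.93 ± 0.33 in 35S:CO and co-10, which did not pass. LHCB4.2 gave -1.35, -1.03 and -1.21 in the 3 genotypes, with no call, although its 6 libraries of each time did not overlap. LHCB7 stood at 1.33 to 9.11 FPKM at ZT4 and 1.25 to 5.36 at ZT16 and did not pass.

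Of the oxygen-evolving complex, PSBO1, PSBO2, PSBP1 and PSBR fell in Col-0 and in co-10. PSBR went from 3627 and 2085 to 915 and 493 FPKM in Col-0, from 1663 and 1661 to 1161 and 861 in 35S:CO and from 2737 and 2096 to 724 and 509.5 in co-10. Its differences were -2.03 ± 0.41 (adjusted p = 0.00721) in Col-0, -0.73 ± 0.41 in 35S:CO, which did not pass (0.377), and -1.98 ± 0.41 (adjusted p = 0.00963) in co-10. PSBQ1 and PSBQ2, the copies of another extrinsic protein, stood apart from the rest of the complex, with differences of -0.42 to 0.01 over the 3 genotypes and no call. Their libraries overlapped, PSBQ1 at 30.5 to 113 FPKM at ZT4 and 40.6 to 99.2 at ZT16, and PSBQ2 at 56.2 to 102 and 44.0 to 105. Of the other photosystem II subunits only PSBY passed, in co-10, where it fell by 1.80 ± 0.44 (adjusted p = 0.0221), and PSBS, PSBW and PSBX gave -1.74 to -0.38 over the 3 genotypes.

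In photosystem I, PSAO, a subunit on the side of the mobile antenna, fell by 2.68 ± 0.53 (adjusted p = 0.00676) in Col-0, from 861 and 462 to 140.0 and 68.3 FPKM, and PSAK, on the antenna side of the complex, fell by 2.35 ± 0.60 (adjusted p = 0.0231), from 758 and 279 to 125 and 64.2. In both genes Col-0 ZT4 replicate 1 was the highest petal library. In co-10 the differences of PSAK, PSAO and PSAG were -2.32 ± 0.60 (adjusted p = 0.0274), -2.25 ± 0.53 (adjusted p = 0.0186) and -2.14 ± 0.44 (adjusted p = 0.00943). PSAF, PSAH2 and PSAL also fell in both genotypes, PSAH1 in Col-0, and PSAD1 and PSAD2 in co-10. PSAE1 and PSAN did not pass in any genotype, and neither did PSAE2. PSAE2 stood at 187 and 99.4 FPKM in Col-0, 114 and 72.4 in 35S:CO and 142 and 57.3 in co-10 at ZT4 and 189 and 96.1, 148 and 110.4 and 111 and 91.9 at ZT16. Its libraries overlapped between the times and its differences of -0.01, 0.49 and 0.16 did not pass.

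**Figure D3:**
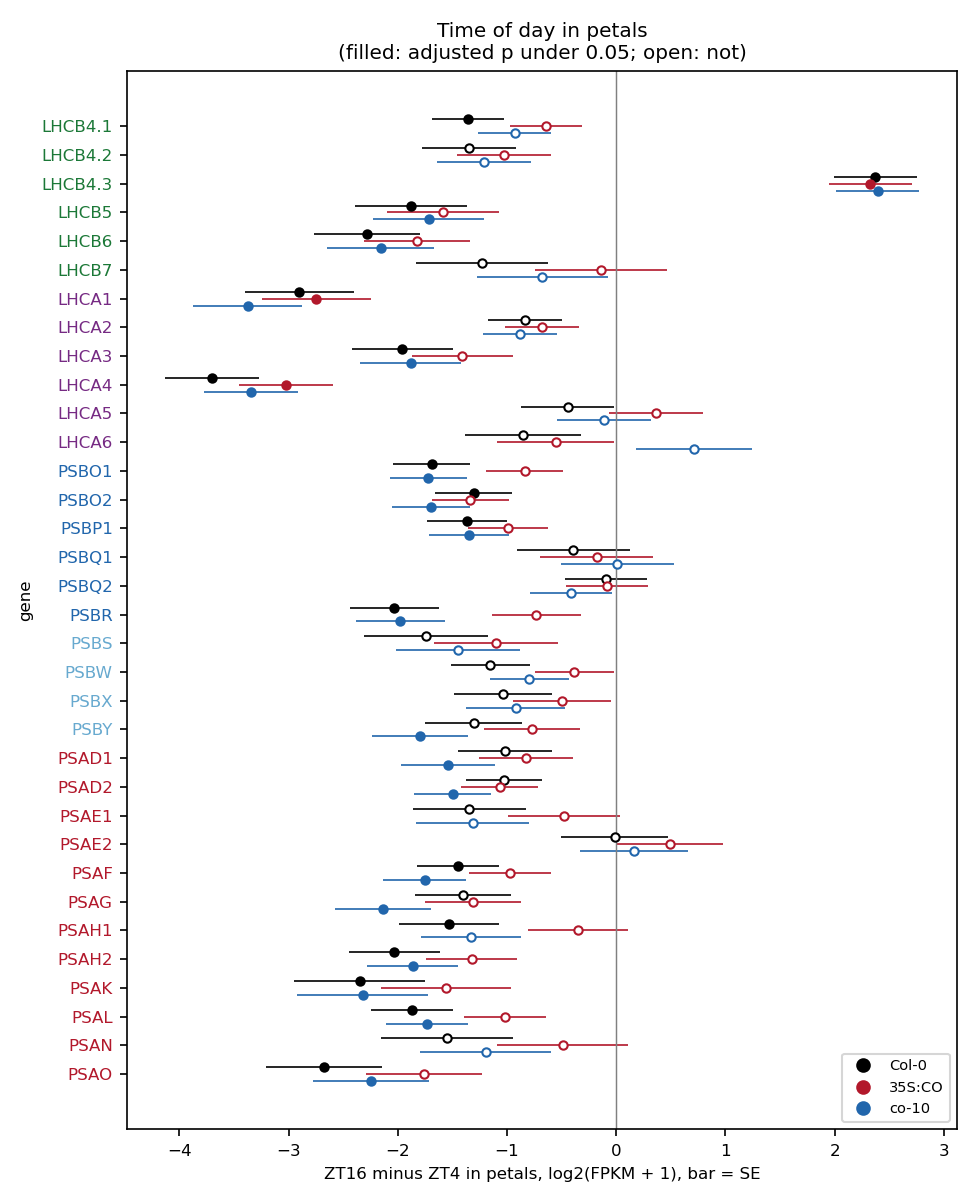
Difference of ZT16 from ZT4 in petals for each gene in Col-0, 35S:CO and co-10 on the log2(FPKM + 1) scale, with bars of 1 SE from the fit and filled points at an adjusted p under 0.05. LHCB4.3 lies above 2 in the 3 genotypes, LHCA4 at or below -3.02, and most other points lie left of 0; name colours are those of the complexes.

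LHCB4.3 (AT2G40100, chromosome 2, 16745628 to 16747424, plus strand), also named LHCB8, was the member that rose. It stood at 19.1 and 13.7 FPKM in Col-0, 8.43 and 5.25 in 35S:CO and 19.3 and 12.0 in co-10 at ZT4. At ZT16 the values were 99.5 and 77.4 in Col-0, 45.9 and 30.7 in 35S:CO and 64.7 and 109.7 in co-10. The lowest ZT16 library lay above the highest ZT4 library. LHCB4.3 rose by 2.37 ± 0.38 (adjusted p = 0.00222) in Col-0, 2.33 ± 0.38 (adjusted p = 0.00865) in 35S:CO and 2.39 ± 0.38 (adjusted p = 0.00269) in co-10. Its share of the summed FPKM of the 3 LHCB4 copies went from 4.72% and 4.51% at ZT4 to 39.9% and 40.7% at ZT16 in Col-0, from 3.48% and 2.25% to 23.9% and 18.5% in 35S:CO and from 4.72% and 5.12% to 26.4% and 47.5% in co-10. In seedlings the share was 9.80% and 5.40% in Col-0 and 1.53% in both 35S:CO libraries. None of the 3 genes shares a 75-base stretch with another locus of the annotation, so their reads could be told apart at that length. The LHCB4.3 promoter window, printed above, was the one of the 3 with no capitals, though it holds the shorter CCAAT on the other strand.

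**Figure D4:**
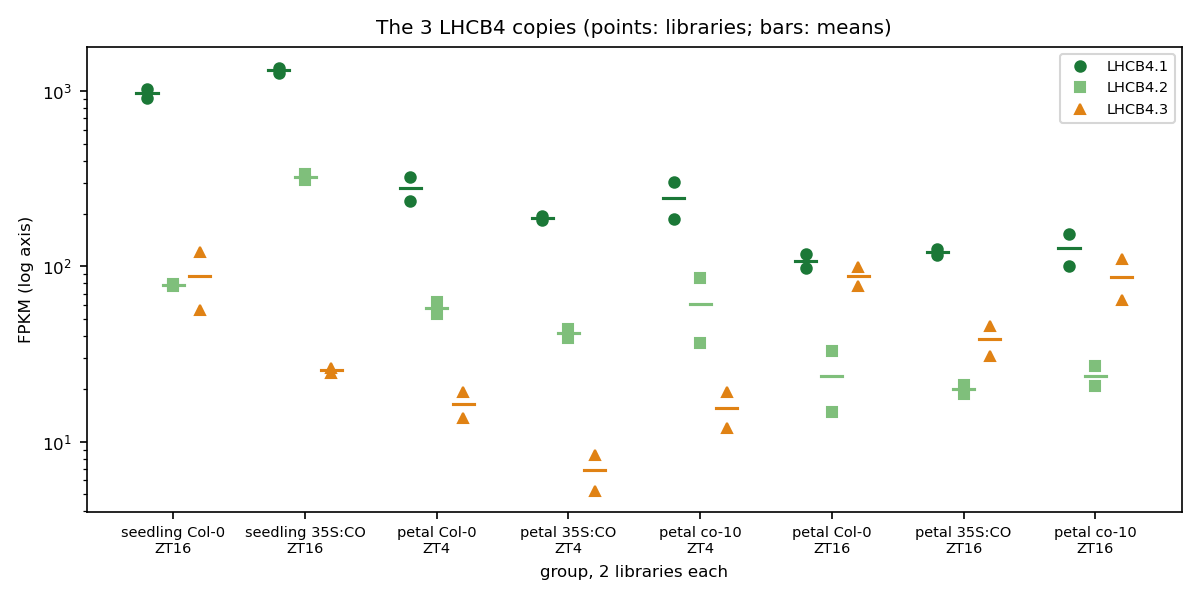
FPKM on a log axis of LHCB4.1, LHCB4.2 and LHCB4.3 in each of the 8 groups; points are the 2 libraries and bars their mean. LHCB4.1 and LHCB4.2 are lower in petals at ZT16 than at ZT4, while LHCB4.3 goes from 5.25 to 19.3 FPKM at ZT4 up to 30.7 to 109.7 FPKM at ZT16.

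Genes of the other chloroplast lists were called lower too, in numbers that differed by list and genotype. Of all tested loci 6.81% were called lower in Col-0, 1.21% in 35S:CO and 4.79% in co-10. Of 9 major light-harvesting genes 7 fell in Col-0, 6 in 35S:CO and 8 in co-10, with medians of -3.57, -3.19 and -4.07. LHCB2.1 and LHCB2.2 had the largest falls in Col-0, at -6.59 ± 0.43 (adjusted p = 2.04e-05) and -5.60 ± 0.45 (adjusted p = 6.50e-05). Electron carrier and ATP synthase genes fell in 3, 0 and 3 of 14, among them PGR5, a protein of cyclic electron flow, at -2.34 ± 0.33 (adjusted p = 0.00109) in Col-0, and ATPD, a subunit of the ATP synthase, at -1.92 ± 0.47 (adjusted p = 0.0188). Chlorophyll synthesis genes fell in 3, 0 and 5 of 14 with CAO at -2.55 ± 0.41 (adjusted p = 0.00213) and CRD1 at -2.36 ± 0.57 (adjusted p = 0.0189) in Col-0, and PORB, a light-dependent enzyme of the pathway, rose by 2.62 ± 0.63 (adjusted p = 0.0206) in co-10. Of 18 assembly and regulation genes 7, 1 and 4 fell, with PSB27, a photosystem II assembly factor, at -2.79 ± 0.54 (adjusted p = 0.00621) and OHP1 at -2.74 ± 0.45 (adjusted p = 0.00253) in Col-0. TAP38, the phosphatase that reverses antenna phosphorylation, rose by 1.19 ± 0.26 (adjusted p = 0.0109) in Col-0 and by 1.11 ± 0.26 (adjusted p = 0.0173) in co-10. Where 0 members of a list passed in 35S:CO, 4 electron carrier and 7 chlorophyll synthesis genes were at an unadjusted p under 0.05. The share of all loci at that threshold was not counted. Of 19 plastid-encoded photosystem genes 1, 5 and 7 fell, and the Col-0 count was near the share of all loci called lower. These transcripts mostly lack the poly(A) tail that the library kit selects. In the same libraries ribosomal RNA loci held 19.1% to 48.8% of FPKM at ZT4 and 3.82% to 38.8% at ZT16, the detected genes of the anther list were MYB21, which petals also express, at 103 to 256 and 23.5 to 163 FPKM, and TUA1 at 74.6 to 179.7 and 129 to 330.0 FPKM, and petal identity genes summed to 1525 to 2221 and 869 to 1573 FPKM. The ZT16 ribosomal share thus overlapped that of ZT4. The identity sum did so only through 35S:CO ZT16 replicate 1, at 1573 FPKM, and the other ZT16 libraries reached at most 1258 FPKM. TUA1 reached higher values at ZT16 and MYB21 lower ones, each with overlap. The part of these markers and of the ribosomal share in the result was not tested.

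Of 6 subunits encoded by a pair of copies, 4 differed in the balance of the copies between organs by the test over both genotypes. The log2 ratio of the copies was taken within each library and its mean compared between the 4 petal and the 4 seedling libraries, all at ZT16 and from Col-0 or 35S:CO, by a two-sided exact permutation test, whose smallest p is 0.0286, adjusted over the 6 pairs. The organ labels were permuted over both genotypes together, and within genotype, a choice made after the data were seen, the smallest p is 0.0556, so that no pair could pass. PSBO2 gave 29.1% to 34.6% of the FPKM of both PSBO copies in seedlings and 7.34% to 13.8% in the 6 petal libraries at ZT16, a difference of 2.08 in the log2 ratio of PSBO1 to PSBO2. PSBQ2 gave 26.5% to 34.1% of both PSBQ copies in seedlings and 48.4% to 56.7% in petals, a difference of -1.31 in PSBQ1 to PSBQ2. PSAE2 gave 35.0% to 42.2% and 48.8% to 60.4%, a difference of -0.93, and PSAH2 67.4% to 71.5% and 32.6% to 53.3%, a difference of 1.61. In each of these pairs the seedling libraries did not overlap the petal libraries at ZT16, and each gave the smallest exact p of 0.0286 (adjusted 0.0429), or of 0.0556 (adjusted 0.0833) within genotype. For LHCB4.1 to LHCB4.2 the difference was -0.39 (exact p = 0.429, adjusted 0.429) and for PSAD1 to PSAD2 it was -0.53 (exact p = 0.200, adjusted 0.240), neither of which passed. In seedlings LHCB4.2 held 6.96% and 7.99% of its pair in Col-0 and 19.6% and 19.9% in 35S:CO.

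Between ZT4 and ZT16 in petals, 2 pairs changed. Here the labels were permuted within genotype over 6 libraries of each time, with a smallest p of 0.00926. The share of PSAE2 went from 30.7% to 37.2% at ZT4 to 48.8% to 60.4% at ZT16, a difference of -1.27 in the log2 ratio of PSAE1 to PSAE2, and that of PSAH2 from 53.7% to 59.7% to 32.6% to 53.3%, a difference of 0.68 in PSAH1 to PSAH2. Neither pair overlapped between the times, and each gave the smallest exact p of 0.00926 (adjusted 0.0278). The other 4 pairs differed by 0.01 to 0.25 and did not pass (adjusted exact p = 0.407 to 0.954). PSBO2 was the minor copy in petals at both times, with 9.10% to 12.8% and 7.34% to 13.8%.

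**Figure D5:**
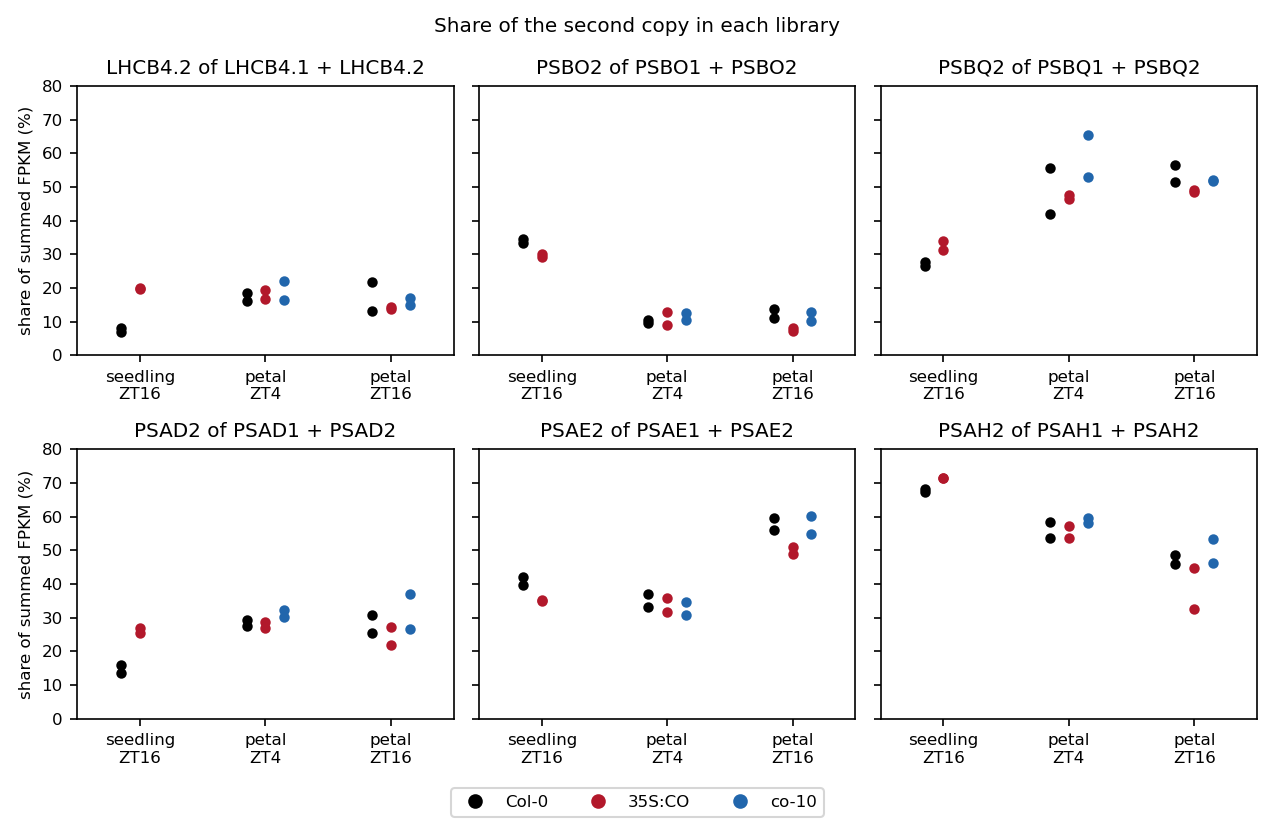
Share of summed FPKM held by the copy named first in each title, for 6 pairs of copies; each point is 1 library and the groups are seedlings at ZT16 and petals at ZT4 and ZT16, coloured by genotype. PSBO2 is below 13.9% in petals and above 29.0% in seedlings, and PSAE2 rises between ZT4 and ZT16.

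Some members share exon with a gene on the opposite strand, and the kit keeps strand but the counting is not stated to use it. PSAH2 shares 24.8% of its exonic bases with ROPGEF11, which stood at 0.295 to 0.423 FPKM in seedlings, 2.83 to 11.5 in petals at ZT4 and 5.67 to 20.8 at ZT16, where PSAH2 stood at 24.3 to 48.0. PSAE2 shares 10.4% with AT2G20270, at 63.6 to 70.4 FPKM in seedlings, where PSAE2 stood at 400 to 516, and at 5.02 to 22.2 in petals. LHCB6 shares 11.9% with AT1G05207, at 1.24 and 1.755 FPKM in Col-0 seedlings and 7.22 and 8.96 in 35S:CO seedlings. LHCB6 itself stood at 318 to 1126 FPKM in seedlings. Values of PSAH2 in petals, and of PSAE2 and LHCB6, are to that extent uncertain. PSAH1, PSAG and PSAE1 share 53.3%, 61.4% and 33.0% with opposite genes that reached at most 2.77 FPKM in any library. LHCA2 was the member with a stretch of 75 bases found elsewhere in the annotated transcripts, for 3.07% of its stretches.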

How the data were processed

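PolyA RNA was sequenced from seedlings and petals with a stranded kit, Illumina TruSeq, per the labels' protocols. The submitters' processing notes name FastQC, HISAT2 and the genome build TAIR10. The sources used here give neither the quantification tool nor the annotation. The authors deposited 1 table of FPKM for 32833 loci in 16 libraries, and every column of values was mapped to a sample. No counts are given, so the test ran on log2(FPKM + 1), on which fold changes of low genes are understated. Loci with at least 1 FPKM in 2 or more libraries of a fit were tested. Each fit used limma 3.58.1 in R 4.3.3 with a trended, robust prior: 4 seedling libraries for the seedling contrast, 12 petal libraries for petal contrasts, and all 16 for contrasts across organs. P-values were adjusted by Benjamini and Hochberg over all loci tested, and a difference was called at an adjusted p under 0.05. Counts at an unadjusted p under 0.05 stand without the share of all loci at that threshold, which was not counted.

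The ratio of 2 copies was log2 of (FPKM + 0.1) of each, compared by exact two-sided permutation over libraries. Script steps were tested on simulated data. The replicate numbers were not taken to pair samples, because the labels call them only biological replicates and each group has 2. Members were matched by locus, and promoter windows and overlaps came from RefSeq's TAIR10.1, which all 32548 nuclear loci matched. Shared stretches of 75 bases were counted over annotated exons.

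In each comparison the named genes are the members called, with at most the 6 largest differences each way led with, or the 2 largest where none was called, and always the 6 pairs of copies and LHCB4.3, LHCB7, LHCA5 and LHCA6. Of the related lists the called genes with the 2 largest differences each way were eligible, and MYB21 and TUA1 were named after their values were seen. The members and lists were chosen with earlier results of these data known. Alternatives were other pseudocounts, another filter on low values, quantile normalization, rescaling to nuclear loci without ribosomal RNA, 1 fit over all libraries, a replicate block, and leaving out each library, and for the copies between organs, added after the data were seen, permutation within genotype. No count test was run, since whole reads could not be recovered from FPKM, and the depth of petal libraries is unknown.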

Additional observations from a re-analysis of the deposited data

Results flagged for a closer look

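The effect of 35S:CO on PSAD2, a ferredoxin docking subunit of photosystem I, differed between the organs at ZT16 by a test of the difference itself. The interaction was -2.16 on the log2(FPKM + 1) scale (SE 0.43, limma adjusted p = 0.0312). In seedlings both 35S:CO libraries lay above both Col-0 libraries. In petals at ZT16 the 35S:CO libraries stood at 57.3 and 36.7 FPKM and the Col-0 libraries at 82.6 and 57.5, so the nearest were almost level. The petal contrast alone did not pass for PSAD2. The call of the interaction was lost when single libraries were left out, as given above. With groups of 2 libraries no sample could be tested as an outlier within its group.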

How the results depend on the processing

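Of 122 member differences called over the comparisons, recomputed 1280 times under the alternatives, 1126 stayed past the threshold, 154 did not and 0 reversed. The 17 calls in seedlings became 3 when all 16 libraries shared a fit and 7 with a replicate block. Calls over all loci fell as well, from 2252 of 19214 to 696 of 21200 and to 1178 of 19214. The 3 calls of ZT16 against ZT4 in 35S:CO became 10 with quantile normalization, 5 with rescaling to nuclear loci, 5 in the fit of all libraries and 9 with a replicate block. Over all loci 757 of 17876 were called as reported. In those settings, in the same order, 901, 702, 1529 (of 21200) and 807 were. The single call of the 35S:CO by organ interaction became 0 at a pseudocount of 0.1 and 2 at a pseudocount of 5, with quantile normalization and with a replicate block. Of all 21200 loci it called 329 as reported, and 125, 567, 225 and 273 in those settings. The fits with a block rest on replicate numbers that may pair nothing: replicate differences of 2 groups correlated at -0.3238 to 0.2547 across loci. In the copy pairs the block left the values between times at -1.27 for PSAE and 0.68 for PSAH and raised their adjusted exact p to 0.0938, because it allows fewer arrangements. Between organs the block left 2.08 for PSBO, -1.31 for PSBQ, -0.93 for PSAE and 1.61 for PSAH, with adjusted exact p of 0.1875 for each, and with 16 arrangements no pair could pass. The cause of the other changes was not tested.

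When each library was left out in turn, so that a lone library was assumed to vary like the other groups, calls ranged from 3 to 19 for 35S:CO in seedlings, with 1 or 2 of them lower when a Col-0 library was left out, and from 0 to 2 for the organ interaction. They ranged from 30 to 32 for petals against seedlings in Col-0 and from 31 to 33 in 35S:CO. Between the times they ranged from 3 to 13 in Col-0, from 0 to 2 in 35S:CO and from 3 to 24 in co-10. For 35S:CO against co-10 at ZT16 they ranged from 0 to 1, and they stayed at 0 for the other genotype contrasts and both interactions with time. Without 1 replicate number, the log2 ratio between times ranged from -0.0481 to 0.2097 for PSAD and from -0.21 to 0.23 for PSBQ. Calls that held without each library were LHCB6, LHCB4.2 and LHCA4 in seedlings, LHCB4.3, LHCA4 and LHCA1 between times in Col-0 and co-10, 30 of 32 between organs in Col-0 and 31 of 33 in 35S:CO. The number of calls over all loci also moved when single libraries were left out, so the ranges above are not results about the members alone. With 2 libraries a group and an unknown depth in petals, a difference that did not pass is not shown to be absent.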
